A study of Homo sapiens with 4 samples.

Results

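Neuromedin U and its receptors were examined in cadmium-resistant breast cancer cells as a group of 3 genes, NMU, NMUR1 and NMUR2, out of the 61541 genes of the count table. The members were chosen by name from their Ensembl identifiers, and the group itself was selected on the measured fall of NMU in cadmium, so the values of NMU below are a description with no test. The RNA came from MDA-MB-231, an established triple-negative breast cancer cell line. Cadmium-resistant cells were serially passaged in medium with cadmium sulfate at a final 10 µM, and control cells had no cadmium treatment. Each group had 2 libraries (n = 2), named here by the numbers in the count table as control 2, control 3, cadmium 1 and cadmium 2. Resistance was produced by selection over many passages, so loss of cells with high NMU and less NMU RNA per cell cannot be told apart in these bulk samples.

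Neuromedin U is a secreted peptide that contracts smooth muscle and acts on feeding, stress and immune cells. It is cut from a larger precursor and carries an amide at its C-terminus. NMUR1, found mainly in the periphery, and NMUR2, found mainly in the central nervous system, are G protein-coupled receptors that signal largely through Gq and phospholipase C beta to calcium and protein kinase C. Neuromedin S, encoded by NMS, is a second ligand of both receptors. Tumor cells of several tissues, the breast among them, are known to express NMU.

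Between 51934729 and 61916007 reads were assigned to genes in a library. Control 2 stood apart from the other libraries over the 12924 genes that averaged 100 or more normalized counts (expressed genes), where the robust SD of the log2 ratio was 0.498 to 0.564 in the 3 pairs with control 2, 0.307 and 0.337 when control 3 was set against either cadmium library, and 0.163 for the pair of cadmium libraries. Single genes could set control 3 apart instead. The line was checked against markers. The genes expected in it (VIM, CD44, KRT8, KRT18 and AXL) summed to 3318 to 3537 TPM in control and 3236 to 3363 TPM in cadmium libraries, where TPM is the read count per base of gene length, scaled to the same total in every library. ESR1, PGR, CDH1 and EPCAM, expected to be low, summed to 29.3 to 73.3 TPM in control and 24.3 to 27.5 TPM in cadmium libraries. Most of this sum was EPCAM, at 71.9 TPM in control 2 and 21.3 TPM in control 3. EPCAM stood at 25.05 TPM in cadmium 1 and 22.65 TPM in cadmium 2. In every library ESR1 and PGR were each at or below 0.153 TPM, and CDH1 was at or below 7.91 TPM. Blood markers (PTPRC, CD68) summed to at most 1.49 TPM and endothelial markers (PECAM1, CDH5) to at most 8.54 TPM in any library. Fibroblast markers (DCN, PDGFRB) summed to at most 7.93 TPM and neuroendocrine markers (CHGA, SYP) to at most 0.651 TPM in any library. DCN had no read in either control or in cadmium 1. PDGFRB was detected in every library, at 5.84 to 7.93 TPM, and made up nearly all of the fibroblast sum.

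NMU (ENSG00000109255) lies on the minus strand of chromosome 4, from 55595229 to 55636698 (hg38), and no other gene of the count table overlaps it. The 250 bases before its RefSeq start are shown because NMU is the member that changed and because the study concerns binding by MTF-1, the metal-responsive transcription factor. They lie at chr4:55636794-55637043 (GRCh38.p14, minus strand). The RefSeq start is 95 bases beyond the end of the gene in the count table. The sequence is written 5′ to 3′, and capitals mark the matches to the MYB core AACNG:

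NMU: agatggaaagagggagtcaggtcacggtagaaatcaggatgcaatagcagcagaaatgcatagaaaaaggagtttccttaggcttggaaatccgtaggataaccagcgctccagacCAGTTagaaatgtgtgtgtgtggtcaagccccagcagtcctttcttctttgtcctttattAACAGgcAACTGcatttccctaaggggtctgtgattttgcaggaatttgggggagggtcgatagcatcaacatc

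Each motif was searched on both strands, and no matches overlapped. The AACNG core matched 3 times, which is a common finding, since 70.6% of 35116 RefSeq promoters of the same length held at least 1 match. No match was found for TGANTCA, the FOS and JUN site, which 6.57% of promoters held. TGCNCNC, a loose pattern searched here for the metal response element bound by MTF-1, also had no match and was held by 49.1% of promoters. GTAAACA, a FOX site, was held by 2.98% of promoters, and the TATA box TATAAA by 10.7%, and neither was present. The GC content of the window was 46.4%, against a median of 58% over all promoters. These are matches of letters in 1 window and say nothing of binding. The study reported changes in MTF-1 binding mostly distal to transcription starts, and distal sites were not searched here.

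NMU was well expressed in control cells and lower in cadmium-resistant cells. Control 2 held 1394 NMU reads and control 3 held 1098, while cadmium 1 held 211 and cadmium 2 held 299. Scaled by size factors (normalized counts), these became 1319 and 1167 for the controls and 210 and 295 for the cadmium libraries. Both cadmium libraries lay far below both controls. They lay below both controls for 23.8% of the expressed genes. Control cells averaged 1243 ± 107 normalized counts (SD, n = 2) and cadmium-resistant cells averaged 253 ± 60.3 (SD, n = 2), so that the control mean was 4.92 times the cadmium mean. This is a log2 fold change, cadmium over control, of -2.30 (standard error 0.32). In the same fit 0.534% of all tested genes were called lower in cadmium, and nothing is read from that share for NMU, since this contrast chose it.

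**Figure D1:**
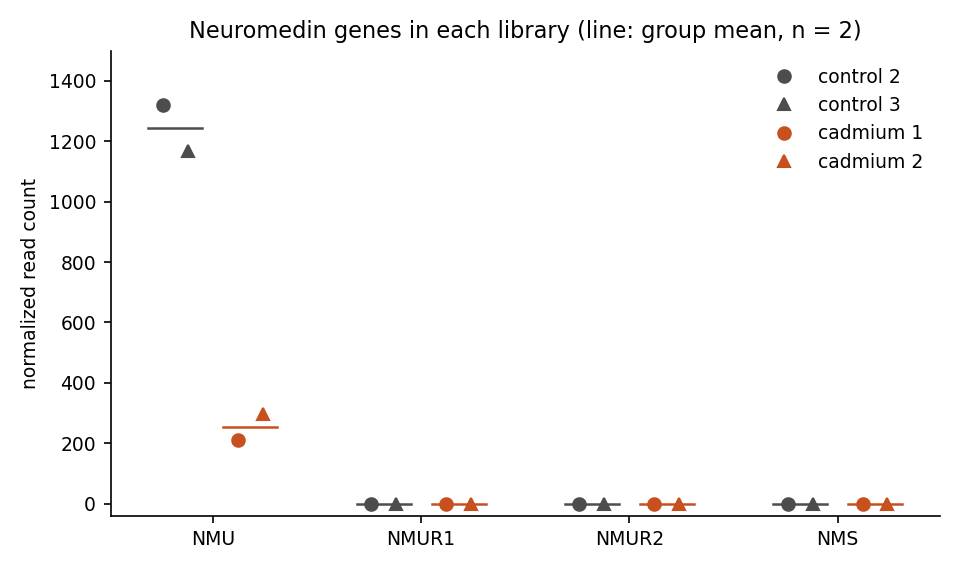
Normalized read counts (y axis) of NMU, NMUR1, NMUR2 and NMS in the 4 libraries, with control libraries in gray, cadmium libraries in orange and a line at each group mean (n = 2). NMU lay at 1167 and 1319 in control and at 210 and 295 in cadmium libraries, and the other 3 genes had no read in any library.

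Ratios between single libraries are given as a description, since this contrast chose NMU and the pairs share libraries. The log2 ratio of cadmium 1 was -2.65 to control 2 and -2.47 to control 3, and that of cadmium 2 was -2.16 and -1.98. Within the groups, the log2 ratio of control 3 to control 2 was -0.18 and that of cadmium 2 to cadmium 1 was 0.49. The ratio between the controls was thus small for NMU beside the spread between the controls, and 24.8% of the 12924 expressed genes had a smaller one. The 2 cadmium libraries differed more for NMU than the 2 controls did. With each library omitted in turn, the log2 change of NMU ranged from -2.08 without cadmium 1 to -2.57 without cadmium 2, and it was -2.21 without control 2 and -2.40 without control 3. Among the 12924 expressed genes NMU had the 50th lowest log2 change, a rank in the same contrast that chose it.

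On a scale per length NMU stood at 98.0 TPM in control 2, 93.6 TPM in control 3, 16.9 TPM in cadmium 1 and 22.9 TPM in cadmium 2. Among genes with a read in the library this level was at the 91.9th and 92.0th percentile in the controls. It was at the 71.7th and 75.9th percentile in the cadmium libraries. NMU RNA was therefore lower but still plainly detected in resistant cells.

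Neither receptor was detected. NMUR1 (ENSG00000171596, chromosome 2, 231523187 to 231530445, minus strand) had 0 reads in all 4 libraries, and so did NMUR2 (ENSG00000132911, chromosome 5, 152391546 to 152433368, minus strand). NMS (ENSG00000204640, chromosome 2, 100470482 to 100483280, plus strand), the gene of the other ligand, also had 0 reads in all 4 libraries. A count of 0 allows up to 3 counts, which covers counting error only. Mates of a pair were counted one by one here, so the limit is 6 counts. The TPM values that follow are for 3 counts and understate the limit. For NMUR1, 3 counts correspond to between 0.0639 TPM and 0.0775 TPM in these libraries, and for NMUR2 to between 0.0882 TPM and 0.107 TPM. For the shorter NMS, 3 counts correspond to between 0.424 TPM and 0.514 TPM. No fold change can be given for these 3 genes, and a difference between the groups was not detectable at this depth. The only gene of the table that overlaps a receptor, ENSG00000286749 at NMUR2, had no read either.

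Other genes of the pathway were taken from a list of 43 genes without the 3 members. Of these, 34 averaged 10 or more normalized counts, and 1 was called higher and 0 lower in cadmium at a DESeq2 adjusted p-value below 0.1. At an unadjusted DESeq2 p-value below 0.05 there were 2 in each direction. Over all 18871 genes at that count level, 585 were higher and 765 lower by the unadjusted value, and nothing is read from the 2 in each direction. Over all 19834 tested genes 0.600% were called higher and 1.13% in either direction, and a single call among 34 genes is not read as a result about the pathway. The edgeR quasi-likelihood test and limma called 0 genes of the list, but they also called 0 over all genes. The smallest adjusted p-value over all genes was 0.494 in edgeR and 0.656 in limma. The median log2 change of the 34 genes was -0.27, against -0.03 over all 18871 genes at that level. Without control 2 these medians were -0.04 and 0.01, and without control 3 they were -0.14 and -0.01.

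The gene that was called encodes a phospholipase C beta, the enzyme that Gq activates to make inositol trisphosphate. PLCB4 (ENSG00000101333, chromosome 20, 9067825 to 9504593, plus strand) had 40 reads in control 2 and 8 in control 3, whereas cadmium 1 had 268 and cadmium 2 had 263. The cadmium libraries were nearly equal and far above both controls, which themselves differed. Over all expressed genes both cadmium libraries lay above both controls for 17.7%. The mean normalized count rose from 23.2 ± 20.7 to 263 ± 4.99 (SD, n = 2 per group). The log2 change was 3.49 ± 0.64 (standard error; DESeq2 adjusted p = 3.20e-05). The log2 change was 4.95 without control 2 and 2.79 without control 3. The call was lost without cadmium 1, where the DESeq2 adjusted p-value was 0.220, and no adjusted value was given without cadmium 2. With all 4 libraries the adjusted p-value was 0.620 in edgeR and 0.669 in limma.

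Per length PLCB4 stayed far below PLCB3. Its level was 0.127 TPM and 0.0308 TPM in the controls and 0.970 TPM and 0.909 TPM in the cadmium libraries. PLCB3 had the highest level of the 4 family members, with 162 TPM and 130 TPM in control and 94.2 TPM and 104 TPM in cadmium libraries. Both cadmium libraries lay below both controls, as for 23.8% of expressed genes. Its log2 change of -0.60 did not pass the test (DESeq2 adjusted p = 0.645). That change was -0.37 without control 2 and -0.81 without control 3.

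None of the 6 measured G protein alpha subunits was called. GNAI2, of the Gi class, was the most abundant, with levels of 325 TPM and 369 TPM in control and 284 TPM and 324 TPM in cadmium libraries and a log2 change of -0.22 (standard error 0.25). GNA11, of the Gq class, followed with levels between 95.5 TPM and 133 TPM and a log2 change of -0.30 (standard error 0.29). That change was -0.04 without control 2 and -0.54 without control 3. Of the receptors related to NMUR1 and NMUR2 in sequence (GHSR, MLNR, NTSR1 and NTSR2), NTSR1, the neurotensin receptor, was the only one measured. Its level was 0.437 TPM in control 2, 1.53 TPM in control 3, 1.09 TPM in cadmium 1 and 1.15 TPM in cadmium 2, and the groups overlapped.

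Downstream of phospholipase C, 0 of the 3 inositol trisphosphate receptors and 0 of the 3 measured protein kinase C genes were called. ITPR3 and ITPR2 had the highest levels among the former, with log2 changes of 0.15 and 0.22. These were -0.04 and 0.07 without control 2, and 0.35 and 0.37 without control 3. PRKCA and PRKCD had the highest levels among the protein kinase C genes, with log2 changes of 0.32 and -0.32. These were 0.04 and -0.12 without control 2, and 0.66 and -0.51 without control 3. All 8 genes of receptor desensitization (RGS, GRK and arrestin genes) were measured and 0 were called. The receptor kinases GRK2 and GRK6 were the most abundant of these, with log2 changes of -0.57 (DESeq2 adjusted p = 0.809) and -0.42 (DESeq2 adjusted p = 0.956). Without control 2 they were -0.19 and -0.09, and without control 3 they were -0.88 and -0.70.

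Genes that process peptide precursors were also not called. Of the 11 listed, 8 were measured. FURIN, a proprotein convertase, had the highest mean level over the 4 libraries, 110 TPM, but 61.5 TPM over the 3 libraries other than control 2, below CPD, CPE and PAM. Its normalized count was 17482 in control 2 and 3264 in control 3, with 4320 and 4224 in the cadmium libraries, so that the groups overlapped. Its log2 change was -1.28 with all libraries, 0.39 without control 2 and -2.04 without control 3. CPD, a carboxypeptidase that trims basic residues, had a log2 change of 0.17 (standard error 0.35). That change was -0.16 without control 2 and 0.60 without control 3. PAM, the enzyme that amidates peptide C-termini, was chosen after its values were seen. It had normalized counts of 11523 and 8367 in control and 8140 and 7497 in cadmium libraries. Its log2 change was -0.35 (DESeq2 adjusted p = 0.988), or -0.10 without control 2 and -0.57 without control 3. MYB, a transcription factor reported to act on NMU in leukemia, had normalized counts of 156 and 102 in control and 78.6 and 115 in cadmium libraries. Its groups overlapped, and its log2 change was -0.42 (standard error 0.49), or -0.08 without control 2 and -0.70 without control 3.

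**Figure D2:**
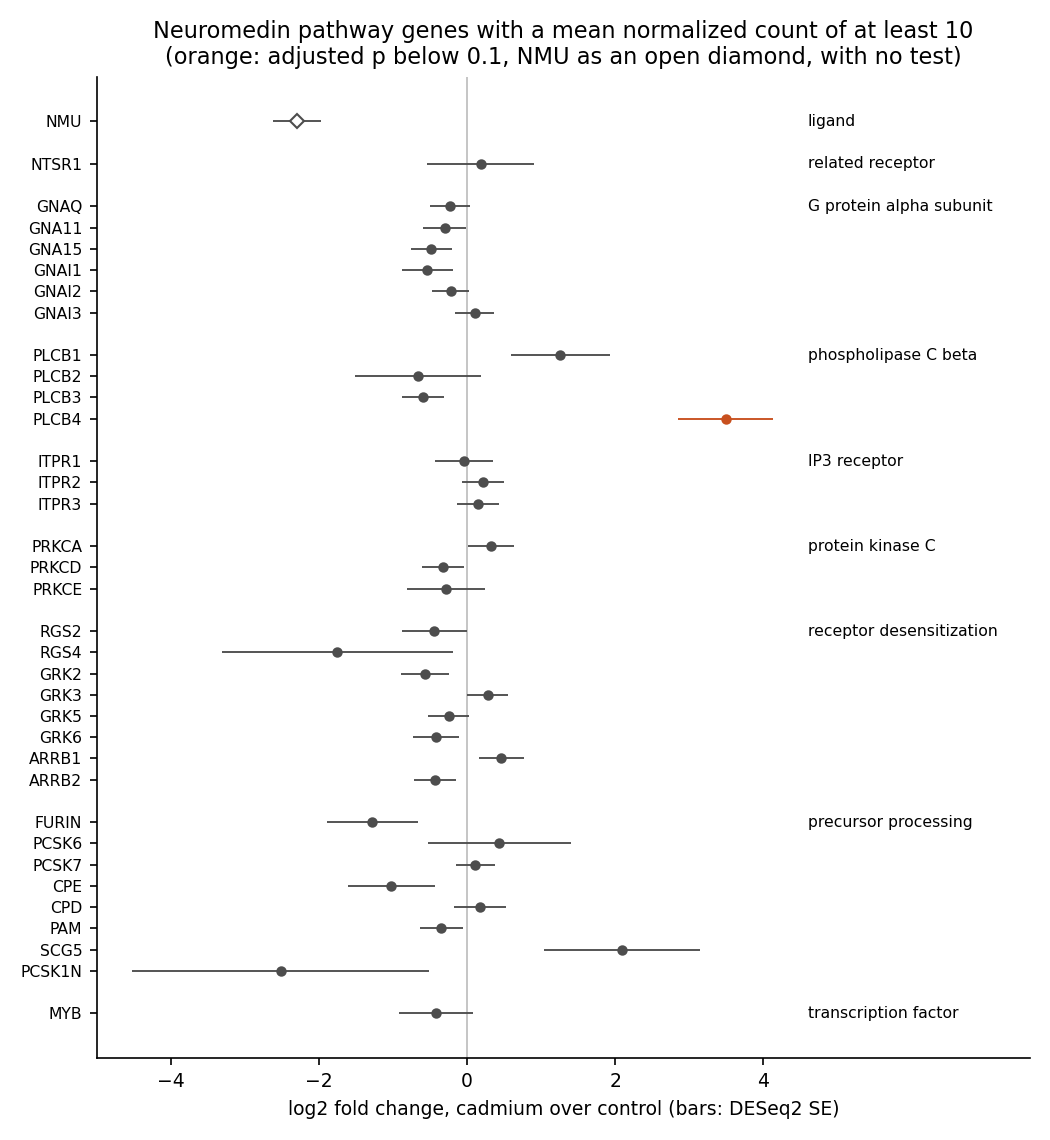
Log2 fold change of cadmium over control (x axis, bars are DESeq2 standard errors) for the measured genes of the neuromedin pathway, ordered by role. NMU at -2.30 is drawn as an open diamond with no test. Among the other genes PLCB4 at 3.49 (orange) is the only one called. The widest bar belongs to PCSK1N, at -2.52, which was not called.

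NMU was then compared with its neighbours on chromosome 4, to see whether the region around it was lower as a whole. The 40 nearest expressed genes, 20 on each side, spanned 47847233 to 70808619. Their median log2 change was -0.02, against -0.06 over the 485 expressed genes of chromosome 4 other than NMU and -0.06 over all 12924 expressed genes. Of the 40 neighbours, 20 had a log2 change below 0 and 20 above it, and the interquartile range was -0.13 to 0.12. DESeq2 called 0 neighbours lower and 1 higher. Both cadmium libraries lay below both controls for 5 neighbours and above them for 10, and over all expressed genes this was so for 23.8% and 17.7%.

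None of the 10 genes closest to NMU was called. CLOCK, a circadian transcription factor 48.3 kb away, had normalized counts of 4032 and 4307 in control and 3798 and 4225 in cadmium libraries, and its groups overlapped. Its log2 change was -0.06 (standard error 0.25). EXOC1, an exocyst subunit and the nearest expressed gene on the other side at 217 kb, had normalized counts of 1786 and 2330 in control and 1906 and 1980 in cadmium libraries and a log2 change of -0.08 (standard error 0.28). The other 8 of the 10 nearest (TMEM165, KDR, CHIC2, LNX1, ENSG00000287382, CEP135, CRACD and AASDH) had log2 changes from -0.28 for LNX1 to 0.77 for ENSG00000287382, with the other values between them. CLOCK and TMEM165 overlap on opposite strands, and reads were counted without strand, so their counts may share reads. The lowest values among the 40 were -1.12 for NIPAL1 and -1.05 for TXK, which lie 7555 kb and 7461 kb away and were named after their values were seen. In each of them the cadmium libraries lay between the controls. The 1 neighbour called was MT2P1, 12740 kb away. Its normalized count was 1348 and 663 in control and 4106 and 5157 in cadmium libraries, with a log2 change of 2.20 (DESeq2 adjusted p = 2.01e-05). The call was lost without cadmium 2 (DESeq2 adjusted p = 0.358), in edgeR (adjusted p = 0.620) and in limma (adjusted p = 0.669), and the log2 change was 2.80 without control 2 and 1.77 without control 3. It is a pseudogene of the metallothionein gene MT2A and can share reads with it, so its count is uncertain.

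**Figure D3:**
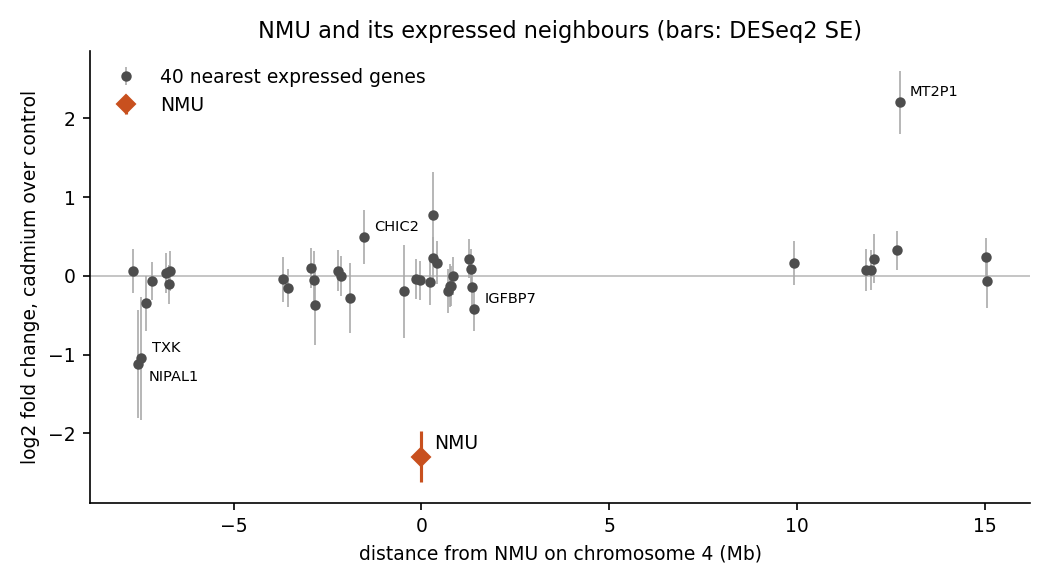
Log2 fold change of cadmium over control (y axis, bars are DESeq2 standard errors) against distance from NMU in Mb (x axis) for NMU and its 40 nearest expressed genes. NMU at -2.30 lies below all 40 neighbours, whose lowest value is -1.12, and the genes within 1 Mb lie between -0.20 and 0.77.

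Peptide hormones other than neuromedins were examined to place NMU among genes of its kind. Of 34 listed genes 15 were measured, and 11 had no read in any library. DESeq2 called 2 of them higher in cadmium and 0 lower, where 0.600% of all tested genes were called higher. The edgeR and limma tests called 0 of them and 0 over all genes. The median log2 change of the 15 was 0.34, and without control 2 it was 0.57, while without control 3 it was 0.13. By TPM NMU ranked 1st of the 35 peptide genes in control 2 and 2nd in control 3, and 8th and 5th in cadmium 1 and cadmium 2.

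KISS1, which encodes kisspeptin, a peptide that releases gonadotropins and was first known as a metastasis suppressor, moved in the other direction. Its level was 40.9 TPM in control 2, 95.2 TPM in control 3, 182 TPM in cadmium 1 and 242 TPM in cadmium 2. Both cadmium libraries were above both controls, as for 17.7% of expressed genes. The normalized count rose from 636 ± 329 to 1971 ± 449 (SD, n = 2 per group). The log2 change was 1.63 ± 0.43 (standard error; DESeq2 adjusted p = 0.0243). The log2 change was 1.18 without control 2 and 2.28 without control 3, and the call was lost without cadmium 1 (DESeq2 adjusted p = 0.860) or cadmium 2 (DESeq2 adjusted p = 1.00).

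ADM, which encodes the vasodilator adrenomedullin, was the other one called. Its level was 52.6 TPM and 37.1 TPM in control and 110 TPM and 92.1 TPM in cadmium libraries. Here too both cadmium libraries lay above both controls, as for 17.7% of expressed genes. Its mean went up from 1396 ± 414 to 3043 ± 302 normalized counts (SD, n = 2 per group). The log2 change was 1.12 ± 0.32 (standard error; DESeq2 adjusted p = 0.0591). The call was lost without cadmium 1 or cadmium 2, where the DESeq2 adjusted p-value was 1.00 in both cases. The log2 change was 1.46 without control 2 and 0.84 without control 3. For KISS1 and ADM alike the adjusted p-value was 0.620 in edgeR and 0.669 in limma.

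**Figure D4:**
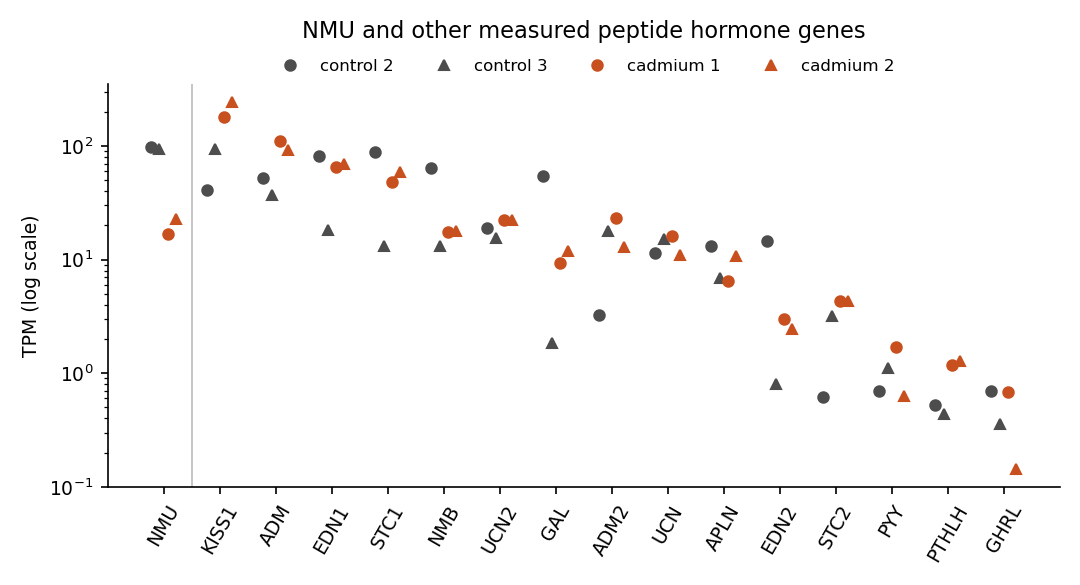
TPM on a log scale (y axis) of NMU and the 15 measured peptide hormone genes in the 4 libraries, with control libraries in gray and cadmium libraries in orange. NMU falls from above 90 TPM in both controls to 16.9 and 22.9 TPM in cadmium libraries, while KISS1 rises to 182 and 242 TPM.

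Genes with a pattern like that of NMU were named by the Euclidean distance between log2 values of the 4 libraries, each gene centred on its own mean, over 12923 expressed genes. The distance was 0.431 for PLAAT4, 0.465 for LRP3, 0.544 for TTYH2, 0.557 for NLRP2 and 0.629 for ACSS1, against a median of 2.34. All lie on other chromosomes, and all were lower in cadmium by the construction of the measure. PLAAT4, a retinoid-induced phospholipid acyltransferase, was nearest, with normalized counts of 1472 and 1431 in control and 337 and 449 in cadmium libraries. LRP3, of the LDL receptor family, had normalized counts of 259 and 267 in control and 58.7 and 54.3 in cadmium libraries. For these genes, as for NMU, the controls were close to each other. In TTYH2, an ion channel gene, the normalized counts of the controls were 249 and 130, and in ACSS1, which encodes a mitochondrial acetyl-CoA synthetase, they were 1508 and 947. NLRP2, an inflammasome-related gene, had control counts of 1292 and 787 and cadmium counts of 241 and 261. With 4 libraries, likeness of this kind is a description only.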

How the data were processed

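Total RNA libraries were sequenced as read pairs. The authors trimmed adaptors with bbduk, aligned reads to hg38 with hisat2 and counted them with featureCounts 2.0.1 and Ensembl release 105, and deposited the resulting read counts, not normalized. Strand was ignored, multi-mapping reads were dropped and mates were counted one by one, so counting error exceeds what counts give. The control columns are numbered 2 and 3 while the labels number controls 1 and 2 and the header command calls them A and B, so they were assigned to the group only. Whether cadmium libraries came from separate cultures is not stated, so p-values measure the spread between these libraries, which may be technical.

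The members and gene lists were chosen with earlier results of these data known. DESeq2, the tool of the study, was run here as version 1.42.0 in R 4.3.3 and fitted to all genes with a read (two-sided Wald test with Benjamini-Hochberg adjustment, leaving out genes with a mean normalized count below 7.65, threshold 0.1). Size factors ranged from 0.940 to 1.06. Alternatives were edgeR 4.0.16, limma 3.58.1, other scalings, filters and thresholds, halved counts and leaving out each library. In the last case the lone library of a group is assumed to vary like the other group. A call lost or gained there also depends on the spread of the pair that remains. It does not show that a gene rests on the omitted library. On simulated counts with known changes all 3 tools recovered most changed genes, but the share of false calls was above the threshold for each. It was highest for DESeq2, so its adjusted p-values may be too small at this number of libraries. The simulation used dispersions fitted by DESeq2 and the same spread in both groups. The real controls differed more (robust SD 0.564) than the cadmium libraries (0.163), so the simulated shares may not hold for the real counts. Named genes were the members, NMS, per role the called genes and the 2 with the highest TPM, the 5 nearest expressed neighbours on each side with any called neighbour, and the 5 genes most like NMU. Gene symbols were matched by Ensembl identifier for 61369 genes. NMUR1 was not in the promoter table, and binding and accessibility assays were not analysed here.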

Additional observations from a re-analysis of the deposited data

How the results depend on the processing

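Under every alternative run the log2 fold change of NMU was between -2.57 and -2.08, a description in the contrast that chose it. The median log2 change of the 40 chromosome 4 neighbours was -0.02. It was -0.056 to 0.042 when 1 library was left out (0.042 without control 2, 0.041 without control 3) and 0.042 with upper-quartile factors. The median stayed at -0.02 for neighbours averaging 10 or more normalized counts and for the 20 nearest. NMUR1 had no read, so no alternative gave it a value. Counts of calls depended on the test: edgeR and limma called 0 genes in either direction, with 1506 and 1423 genes at an unadjusted p-value below 0.05, and 0 in each list, where DESeq2 called 119 higher and 106 lower. Leaving out 1 library gave 9 to 2678 calls higher and 5 to 3511 lower, with 12 and 5 without cadmium 1, 9 and 5 without cadmium 2, 1149 and 1163 without control 2, and 2678 and 3511 without control 3, and the cause was not tested. In the pathway list without NMU these ranges were 0 to 7 higher and 0 to 13 lower, and in the peptide list 0 to 5 and 0 to 5. The lists held 34 and 15 measured genes with all 4 libraries. The upper ends came from the fits without a control, where the calls over all genes were also most numerous. Shares of tested genes were not computed for those fits, so nothing is read from the upper ends about either list. At an adjusted p-value below 0.05 the peptide list had 1 gene higher. The upper-quartile split was 152 higher and 88 lower. No paired analysis was possible because the numbers on the control columns (2 and 3) differ from those in the labels (1 and 2). The depth limits NMUR1, NMUR2 and NMS, which had no reads. Leaving out libraries for the list medians was added after seeing the data, and the pathway median was then -0.24 to -0.04 and the peptide median 0.13 to 0.57.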
